A study of Homo sapiens with 12 samples.

Results

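Lysosome and autophagy genes were examined as a set of 42 genes, taken by symbol from a list of lysosomal membrane proteins, lysosomal enzymes and their cofactors, proton pump subunits, autophagy proteins and the transcription factors of lysosome formation. All 42 were found among the 62262 genes of the deposited table. All 42 passed the filter on low counts, which kept 19784 genes, with 123 to 44124 counts per library. The cells were a human podocyte line, conditionally immortalized with a temperature-sensitive SV40 T gene and moved to 37 °C to differentiate before treatment. Podocytes are the epithelial cells that wrap the capillaries of the kidney glomerulus. Every culture carried the SV40 gene, and the 4 groups differed in what was added for 24 h: the solvent DMSO as the control, or 1 of 3 drugs at 100 nM, which were tacrolimus (TAC), cyclosporine A (CSA) and voclosporin (VCS). Each group had 3 libraries of polyadenylated RNA. All 3 drugs block calcineurin, a phosphatase switched on by calcium. VCS is an analog of CSA in structure, and TAC is a macrolide. All cultures came from 1 line, and the sources used here do not say whether the replicates were separate passages, days or wells, so p-values measure the spread between these libraries, which may be technical.

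Lysosomes are acidic compartments in which proteases, glycosidases and lipases break down material that arrives by endocytosis or in autophagosomes. Transcription factor EB (TFEB) and its relative TFE3 drive many lysosomal genes together through a short DNA element called CLEAR, whose core is an E-box. Calcineurin enters this pathway directly: calcium released through the lysosomal channel mucolipin 1 (MCOLN1) activates calcineurin, which dephosphorylates TFEB and lets it enter the nucleus. RNA levels do not report where TFEB protein is in the cell. Podocytes divide little and are known for a high rate of autophagy.

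The promoter sequences below show which of the genes carry this element. RefSeq promoter windows (GRCh38.p14, 250 bases before to 50 bases after a gene's start) were matched for 30 of the 42 genes. The windows were searched for the E-box CACGTG, the longer TCACGTGA, and the full CLEAR palindrome, which is TCACGTGA with G before it and C after it. Each of the 3 reads the same on both strands, and each shorter one is contained in the longer ones. CACGTG was found in 9 of the 30 windows (30.0%), against 7.26% of all 35116 windows and 26 of the 130 windows of other lysosome and autophagy genes. For the listed genes 1 window per symbol was kept, while the 35116 windows were counted without that step. TCACGTGA was found in 5 (16.7%, against 0.98% of all windows) and the full palindrome in 2 (6.67%, against 0.353%). The genes with the longer forms are shown, with 1 E-box of CTSD, 30 bases each on the gene's own strand and with the motif in capitals. GAA encodes acid alpha-glucosidase, LAMP1 the most studied lysosomal membrane protein, CTSA and CTSD are the proteases cathepsin A and cathepsin D, and ATP6V0D1 is a subunit of the proton pump.
GAA, chr17:80101493-80101522, plus strand: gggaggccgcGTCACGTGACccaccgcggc
GAA, chr17:80101538-80101567, plus strand: gctcccgccgGTCACGTGACccgcctctgc
MCOLN1, chr19:7522598-7522627, plus strand: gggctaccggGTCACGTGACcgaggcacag
MCOLN1, chr19:7522571-7522600, plus strand: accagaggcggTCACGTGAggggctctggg
LAMP1, chr13:113297199-113297228, plus strand: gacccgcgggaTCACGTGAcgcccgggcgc
LAMP1, chr13:113297226-113297255, plus strand: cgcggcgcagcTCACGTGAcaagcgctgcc
CTSA, chr20:45891298-45891327, plus strand: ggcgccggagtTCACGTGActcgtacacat
ATP6V0D1, chr16:67481199-67481228, minus strand: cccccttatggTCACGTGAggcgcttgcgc
CTSD, chr11:1763957-1763986, minus strand: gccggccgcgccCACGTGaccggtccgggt
The LAMP1 window held 6 copies of CACGTG, the most of any of the 30. CD63, CTSF and NEU1 also had the 6-base form. A match describes the letters of the window only, and its absence says only that these letters are not in that window.

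Library totals ran from 28808213 to 36077072 counts, and the 42 genes together took 0.727 to 0.979% of a library. Mitochondrial transcripts took 9.68 to 13.4% of counts in the libraries numbered 3 and 5.82 to 8.12% in the others. As a check of the cell type, the podocyte markers ACTN4 and VIM were abundant, but NPHS1, which encodes nephrin of the slit diaphragm, had 1 to 11 counts per library and was not tested. Of 12 macrophage markers, a cell type rich in lysosomes, 3 had at most 10 counts in any library and the summed level of all 12 was 7.80 to 13.1 CPM over all libraries, CPM being a count divided by its library's scaled total. The CSA library numbered 3 stood apart. It had the highest level of the 12 libraries for 26 of the 42 genes, and its summed level was 10230 CPM, against 7174 to 8569 in the other 11. How often it was the highest library over all genes was not counted. The CSA library numbered 3 also had the largest total, 36077072 counts, and the lowest scaling factor, 0.9574, where the highest was 1.039. The summed level of 8 mesangial and fibroblast markers was also highest there, at 6288 CPM against 3860 to 4709 elsewhere. Most of that sum was COL1A1, with means of 4417 CPM in CSA and 3666 in DMSO. Of the others, PDGFRB, LUM, THY1 and ACTA2 had higher means in CSA than in DMSO, and DCN, PDGFRA and ITGA8 lower ones. The summed level of 15 podocyte markers was 5735 to 5903 CPM in the CSA libraries, above the 5257 to 5620 of the other 9. That of 12 airway epithelial markers was 33.6 to 60.5 CPM with VCS, 25.2 to 46.5 with DMSO, 21.8 to 27.02 with TAC and 17.99 to 25.6 with CSA, with the basal cell keratin KRT5 at means of 10.5, 7.96, 1.60 and 1.41 in that order. The 12 markers did not all go the same way. In the same order of groups, SFTPB had means of 11.1, 8.15, 14.3 and 13.9 CPM, and MUC5B of 9.62, 2.30, 5.03 and 4.31. The part of the CSA library numbered 3, and of these markers, in the results below was not tested. The main counts that rest on that library are given with and without it.

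In DMSO, per kilobase of the longest coding transcript, the most abundant of the genes were CTSZ (658.0 CPM per kilobase), the tetraspanin CD63 (609.3), PSAP (288.5), LAMP1 (207.4) and CTSD (187.9). CTSZ is the protease cathepsin Z, and PSAP encodes prosaposin, the precursor of the saposins that help enzymes reach membrane lipids. The scarcest were CTSS at 1.74, UVRAG at 2.91, CTSF at 3.15, CTSK at 4.14 and TFEB at 4.91 CPM per kilobase. CTSS and CTSK are cathepsins best known from antigen-presenting cells and osteoclasts. Libraries of the same group differed by a pooled SD of 0.038 (TFEB) to 0.34 (CTSK) on the log2 scale, with a median of 0.15 over the 42 genes. The group means of a gene spanned 0.052 (CTSC) to 0.45 (CTSD), with a median of 0.23 on the same scale. A range of group means and an SD of single libraries are unlike measures, so their sizes are not compared.

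**Figure D1:**
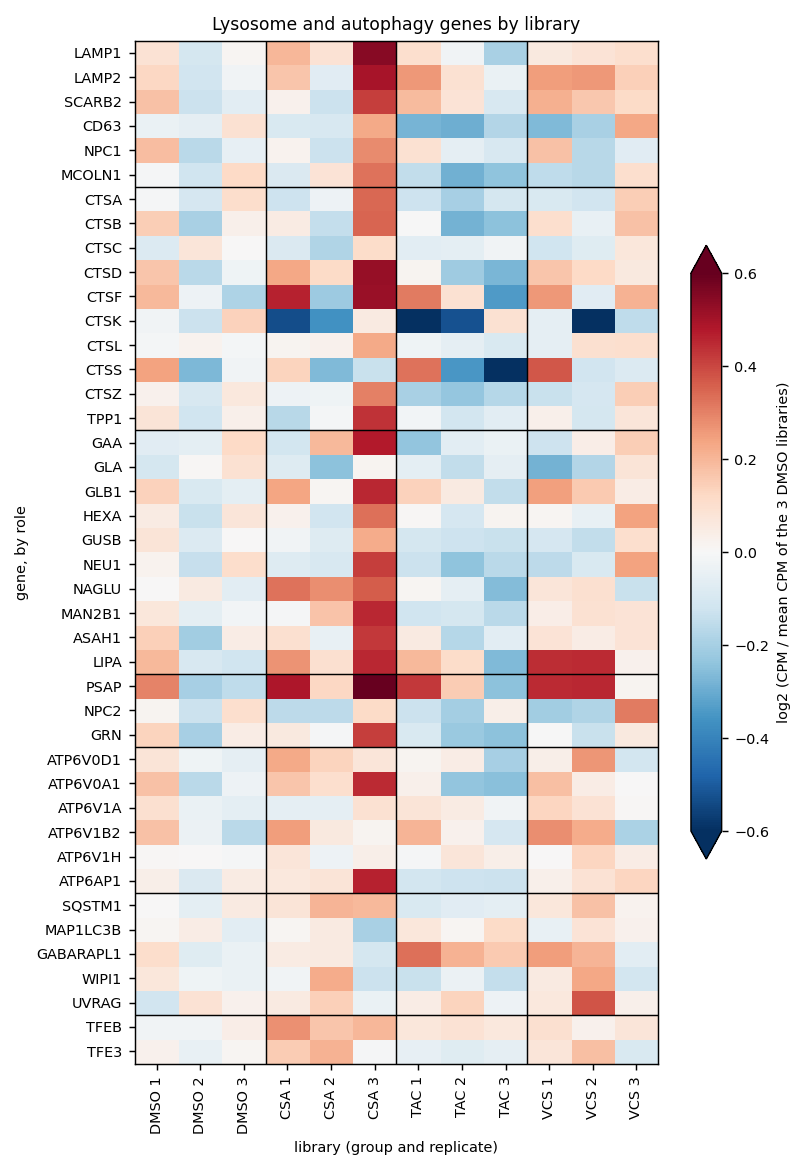
Level of each of the 42 genes (vertical axis, grouped by role) in each of the 12 libraries (horizontal axis), as the log2 ratio of its CPM to the mean CPM of the 3 DMSO libraries; values beyond the ends of the colour scale take the end colour. CSA 3 is above the DMSO mean for 36 of the 42 genes, while TAC 3 is the lowest library for 15 of them.

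None of the 42 genes passed the test in any comparison with DMSO, but in CSA most lay slightly above it. CSA means were above DMSO for 35 of the 42 genes, with a median log2 fold change of 0.11. Over all genes tested the share above 0 was 49.0% and the median was -0.0043. Passing means a Benjamini-Hochberg adjusted p under 0.05 in edgeR's quasi-likelihood test over all 19784 genes. In that comparison 0.0101% of all genes passed, and the smallest adjusted p among the 42 was 0.939. At an unadjusted p under 0.05 there were 5 genes, all higher in CSA (LAMP1, CTSD, NAGLU, PSAP and TFEB), where 2.05% of all genes were higher and 1.7% lower with such a p. DESeq2, a second count test, passed 0 of the 42 (0.0455% of all genes) and gave 6 an unadjusted p under 0.05, where 3.67% of all genes had one. The count of 5 depended on single libraries: it was 2 without CSA 3, 1 without DMSO 2, 2 without DMSO 3 and 12 without CSA 2. Over all genes tested in these fits, 743 of 20344, 464 of 20299, 459 of 20305 and 1057 of 20321 had such a p, in that order. With replicate number as a block the count among the 42 was 12, all higher in CSA, where 11.4% of all genes had such a p. For 5 genes the 3 CSA libraries all lay above the 3 DMSO libraries (LAMP1, NAGLU, ATP6AP1, SQSTM1 and TFEB) and for 0 all lay below, where 4.94% of all genes lay above and 4.93% below. The 95% intervals of all 42 genes lay between -0.78 (CTSK) and 0.85 (PSAP) on the log2 scale, inside a 2-fold change in either direction. Because whole cultures were measured, fewer cells of a type and less RNA per cell cannot be told apart.

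Without CSA 3, 26 of the 42 genes were above DMSO and the median was 0.03. Its median log2 ratio to the DMSO mean was 0.32, against 0.05 for CSA 1 and 0.0025 for CSA 2. By role, the medians with all 12 libraries were 0.12 for 6 membrane proteins, 0.09 for 10 proteases, 0.19 for 10 glycosidases, lipases and other hydrolases, 0.17 for 3 luminal cofactors, 0.13 for 6 proton pump genes, 0.03 for 5 autophagy genes and 0.17 for the transcription factors TFEB and TFE3. Without CSA 3 the membrane proteins (median -0.02) and the proteases (-0.04) went below 0, and the hydrolases went to 0.04. The proton pump genes went to 0.10, the autophagy genes to 0.10 and the transcription factor pair to 0.20.

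The regulators come first. In libraries 1, 2 and 3 of each group, TFEB was at 15.4, 14.3 and 14.6 CPM with CSA, 12.56, 12.55 and 13.1 with DMSO, 13.4, 13.5 and 13.3 with TAC, and 13.6, 12.97 and 13.4 with VCS. All CSA libraries lay above all others. The log2 fold change of CSA against DMSO was 0.21 (SE 0.09, 95% interval 0.03 to 0.40, adjusted p = 0.939 by edgeR's quasi-likelihood test), and it was 0.18 to 0.24 when any 1 library was left out. TFE3 had 97.3, 101.2 and 87.3 CPM with CSA, 89.4, 85.1 and 88.5 with DMSO, 84.7, 83.3 and 84.4 with TAC, and 92.2, 99.4 and 82.2 with VCS. Its TAC libraries lay just below the DMSO libraries, while CSA and VCS overlapped DMSO. MCOLN1, the calcium channel that feeds calcineurin, had 27.1, 24.6 and 25.4 CPM with TAC, 29.9, 27.6 and 32.6 with DMSO, 28.3, 31.85 and 37.7 with CSA, and 27.01, 26.8 and 32.3 with VCS. The 3 TAC libraries lay below all DMSO libraries, with a log2 fold change of -0.22 (SE 0.12, adjusted p = 0.92 by edgeR). MCOLN1 (GRCh38 19:7522626-7534009, plus strand, in GENCODE 29) overlaps PNPLA6 on the same strand, and PNPLA6 was at 108.3 CPM in CSA against 84.9 in DMSO, so reads of the overlap could be assigned to either.

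Among the 42 genes, NAGLU had the smallest p for CSA against DMSO. It encodes the N-acetylglucosaminidase that breaks down heparan sulfate and is deficient in a form of Sanfilippo syndrome (GRCh38 17:42536172-42544449, plus strand). The CSA libraries had 47.45, 45.96 and 48.65 CPM, against 37.95, 39.3 and 36.3 with DMSO, 38.1, 36.4 and 31.65 with TAC and 39.75, 40.4 and 34.5 with VCS. All 3 CSA libraries lay above the other 9, and CSA 3 did not differ from its replicates as it did for most of the genes. The log2 fold change of CSA was 0.32 (SE 0.09) against DMSO, 0.42 (SE 0.09) against TAC and 0.31 (SE 0.09) against VCS, with adjusted p-values by edgeR of 0.939, 0.46 and 1.0. By DESeq2 the adjusted p against TAC was 0.0261, past the threshold. Without CSA 3 or any other single library the value against DMSO was 0.29 to 0.36. The protease CTSD (GRCh38 11:1752752-1764573, minus strand) had 468.6, 431.7 and 572.5 CPM with CSA, 447.6, 357.0 and 392.4 with DMSO, 403.8, 344.1 and 330.3 with TAC, and 447.2, 433.1 and 415.7 with VCS. CSA overlapped DMSO and lay wholly above TAC.

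LAMP1, a heavily glycosylated protein that lines the lysosomal membrane, had 642.5, 594.9 and 818.6 CPM with CSA, 594.2, 520.1 and 565.3 with DMSO, 600.8, 552.2 and 489.2 with TAC, and 582.7, 591.9 and 599.5 with VCS. The CSA libraries lay above those of DMSO, by less than 1 CPM at the closest, and the log2 fold change was 0.29 (SE 0.12), or 0.15 without CSA 3. PSAP had 1159, 903.3 and 1279 CPM with CSA, 1018, 721.2 and 746.5 with DMSO, 1112, 921.4 and 699.7 with TAC, and 1131, 1133 and 839.4 with VCS. Its libraries overlapped in every comparison with DMSO, and DMSO 1 was well above the other DMSO libraries. Its log2 fold change in CSA was 0.43 (SE 0.20) with all libraries, 0.25 without the 4 libraries numbered 3, and 0.32 (without CSA 3) to 0.60 (without DMSO 1) with 1 library left out. GABARAPL1, an autophagosome protein of the ATG8 family, had 46.9, 43.2 and 41.7 CPM with TAC, 40.1, 35.55 and 36.4 with DMSO, 38.6, 38.8 and 34.7 with CSA, and 44.5, 43.1 and 35.7 with VCS. Its TAC libraries lay above all DMSO and CSA libraries, with a log2 fold change against DMSO of 0.23 (SE 0.10, adjusted p = 0.92 by edgeR).

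**Figure D2:**
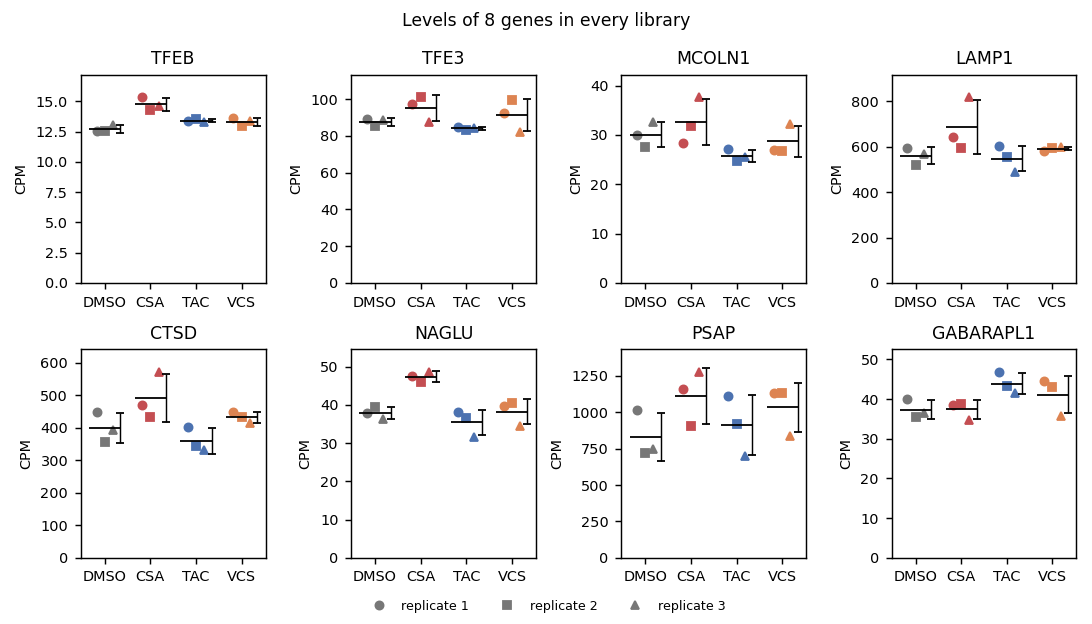
Level in CPM (vertical axis, from 0) of 8 genes in the 4 groups (horizontal axis); symbols are replicates 1, 2 and 3, horizontal lines are means, and bars beside them are the SD over 3 libraries. NAGLU and TFEB are higher in the 3 CSA libraries than in any other, while for LAMP1, CTSD and MCOLN1 the CSA mean is drawn up by CSA 3.

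In TAC the genes leaned the other way. Of the 42, 13 were above DMSO and 29 below, with a median log2 fold change of -0.06. Over all genes tested the share above 0 was 49.0% and the median was -0.0044. None passed (0.0354% of all genes did), the smallest adjusted p was 0.92, and GABARAPL1, higher in TAC, was the 1 gene with an unadjusted p under 0.05, where 2.25% of all genes were higher and 2.4% lower with one. DESeq2 passed 0 of the 42 (0.192% of all genes) and also gave 1 an unadjusted p under 0.05, where 4.5% of all genes had one. By edgeR the count was 0 without DMSO 2, DMSO 3 or TAC 2, 2 without TAC 3 or VCS 3 and 3 without CSA 3. Over all genes tested in these fits, 747 of 20299, 589 of 20305, 584 of 20332, 1512 of 20302, 1201 of 20288 and 1081 of 20344 had such a p, in that order. With the replicate block the count among the 42 was 1 higher and 3 lower, where 13.1% of all genes had such a p. The TAC libraries all lay below the DMSO libraries for 10 genes (CD63, MCOLN1, CTSA, CTSL, CTSZ, GUSB, MAN2B1, ATP6AP1, SQSTM1 and TFE3), where 6.44% of all genes did so. They lay above for 2 (GABARAPL1 and TFEB), where 5.99% of all genes did. CTSZ, for example, was at 857.3 ± 17.5 CPM in TAC against 983.8 ± 55.8 in DMSO (SD, n = 3), and CD63 was at 632.0 ± 28.9 against 751.2 ± 43.0. These differences were small: -0.20 (SE 0.12) and -0.25 (SE 0.14) on the log2 scale. The proteases had the lowest median among the roles, -0.15, with 9 of 10 below DMSO, and the autophagy genes were at 0.05 with 3 of 5 above. The 95% intervals of the 42 genes lay between -0.84 (CTSK) and 0.56 (PSAP). Without TAC 1 the number above DMSO was 7, and without TAC 3 it was 17.

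In VCS 31 of the 42 genes were above DMSO, with a median log2 fold change of 0.07, against 50.9% and 0.0041 over all genes tested. None passed (0.00505% of all genes did), the smallest adjusted p was 0.963, and 0 had an unadjusted p under 0.05, where 3.27% of all genes had one. DESeq2 passed 0 of the 42 (0.0354% of all genes) and gave 1 an unadjusted p under 0.05, where 2.99% of all genes had one. By edgeR the count was 2 without DMSO 1, 1 without TAC 3 and 4 without VCS 3. Over all genes tested in these fits, 1057 of 20313, 721 of 20302 and 2914 of 20288 had such a p, in that order. LAMP2, the membrane protein of chaperone-mediated autophagy, was the 1 gene whose VCS libraries all lay above DMSO, at 259.9 ± 11.6 CPM against 223.4 ± 19.0 (SD, n = 3), where 3.32% of all genes did so, and for 0 they all lay below, where 4.16% did. All 6 proton pump genes were above 0, at 0.06 to 0.12, and all 5 autophagy genes were, at 0.02 to 0.17. Of the further pathway genes described below, 8 of 13 proton pump genes were above 0 (median 0.04) and 32 of 46 autophagy genes (0.08). LIPA, the lysosomal acid lipase, was at 84.3, 84.7 and 63.3 CPM in VCS against 71.1, 58.1 and 57.2 in DMSO, with overlapping libraries. LIPA spans IFIT1, IFIT2 and IFIT3 on the other strand, and whether counting used the strand is not stated. The 95% intervals lay between -0.86 (CTSK) and 0.74 (PSAP). For the mean of the 3 inhibitors against DMSO, 29 genes were above 0 with a median of 0.04, against 48.9% and -0.0044 over all genes. None passed by edgeR (0.0101% of all genes did) or by DESeq2 (0.0455%). By either test 0 had an unadjusted p under 0.05, where 3.66% of all genes had one by edgeR and 3.42% by DESeq2. The edgeR count was 2 without DMSO 1, TAC 3 or VCS 3 and 1 without CSA 2. Over all genes tested in these fits, 1182 of 20313, 1263 of 20302, 2054 of 20288 and 825 of 20321 had such a p, in that order. Since the comparisons share the DMSO libraries, they are given side by side only.

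Between the inhibitors, at the same concentration and time, the median was furthest from 0 for CSA against TAC. Of the 42 genes, 36 were higher in CSA than in TAC, with a median log2 fold change of 0.18, against 49.4% and -0.0035 over all genes. None passed (0.0303% of all genes did), and the smallest adjusted p was 0.46, for NAGLU. At an unadjusted p under 0.05 there were 11 genes higher in CSA and 1 lower (GABARAPL1, -0.23, SE 0.10), where 4.34% of all genes were higher and 3.18% lower with such a p. The libraries did not overlap for 16 genes higher in CSA, where 6.84% of all genes were so, and for 1 lower, where 6.74% were. The 5 largest values were CTSD at 0.45 (SE 0.13), NAGLU at 0.42, the proton pump gene ATP6V0A1 at 0.39 (SE 0.12), progranulin (GRN) at 0.35 (SE 0.12) and the mannosidase MAN2B1 at 0.35 (SE 0.10). All 6 membrane proteins, 9 of 10 proteases and 9 of 10 hydrolases were above 0, with medians of 0.19, 0.19 and 0.24. The autophagy genes were split, 3 above and 2 below, with a median of 0.0028: SQSTM1, the p62 cargo receptor, was at 0.23 (SE 0.08) and MAP1LC3B, which encodes the autophagosome marker LC3B, at -0.11 (SE 0.09).

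Part of that gap rested on the libraries numbered 3. Without CSA 3 the number higher in CSA than in TAC was 29 and the median 0.11. In that fit 7 genes in place of 12 had an unadjusted p under 0.05, where 1390 of all 20344 genes had one. With any other single library left out the count was 10 (without TAC 2) to 16 (without CSA 2). Over all genes tested in these fits, 1052 of 20332 and 1319 of 20321 had such a p. With replicate number as a block the count among the 42 was 19, where 3145 of all 19784 genes had such a p. Without all 4 libraries numbered 3 the number higher was 30 and the median 0.075. By role, 3 of 6 membrane proteins, 7 of 10 proteases and 8 of 10 hydrolases were above 0 without CSA 3, with medians of 0.06, 0.10 and 0.10, and 3 of 5 autophagy genes, with a median of 0.05. Of the 5 largest values, CTSD was then at 0.33, NAGLU at 0.40, ATP6V0A1 at 0.28, GRN at 0.21 and MAN2B1 at 0.21. NAGLU was at 0.33 without the libraries numbered 3, CTSD at 0.27 and LAMP1 at 0.10. NAGLU was the 1 gene of the 42 to pass with DESeq2 for CSA against TAC, where 0.233% of all genes passed. It was also the 1 gene of the 42 to pass there with replicate number as a block, where 65 of all 19784 genes passed.

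For CSA against its analog VCS the median was smaller. Of the 42 genes 29 were higher in CSA, with a median of 0.08, against 49.1% and -0.0030 over all genes. None passed (0.0101% of all genes did), DESeq2 passed 0 as well (0.0607%), and each test gave 1 gene an unadjusted p under 0.05, in edgeR NAGLU, higher in CSA, where 1.23% of all genes were higher and 1.31% lower with one (2.23% in either direction by DESeq2). The edgeR count was 4 without CSA 1, 2 without CSA 2 and 3 without VCS 3. Over all genes tested in these fits, 770 of 20347, 521 of 20321 and 1078 of 20288 had such a p, in that order. The libraries did not overlap for NAGLU and TFEB, both higher in CSA, where 3.04% of all genes were so, and for 0 genes lower, where 2.82% were. The direction depended on CSA 3: without it 16 genes were higher in CSA and the median was -0.03. The 95% intervals of the 42 genes ran from -0.68 (CTSS) to 0.61 (CTSF), all inside a 2-fold difference between the analogs. TAC was below VCS for 37 genes, with a median of -0.12, where over all genes 49.0% were above 0 and the median was -0.0040. None passed (0.0253% of all genes did), and 0 had an unadjusted p under 0.05 by edgeR (3.63% of all genes had one), against 2 by DESeq2 (3.36% of all genes), which also passed none (0.202% of all genes). The edgeR count was 5 without TAC 1, 4 without CSA 3, 2 without VCS 3 and 1 without CSA 1 or CSA 2. Over all genes tested in these fits, 765 of 20321, 887 of 20344, 1263 of 20288, 749 of 20347 and 707 of 20321 had such a p, in that order. With the replicate block the count among the 42 was 6, all lower in TAC, where 7.88% of all genes had such a p. The libraries lay wholly below those of VCS for 5 genes (CTSD, CTSZ, MAN2B1, ATP6AP1 and SQSTM1), where 4.65% of all genes did so, and above for 0, where 4.12% did. In levels, the CSA mean was the highest of the 4 groups for 27 of the 42 genes and the TAC mean the lowest for 26. Summed over the 42 genes, levels were 8917 ± 1163 CPM in CSA, 8390 ± 155 in VCS, 7966 ± 558 in DMSO and 7542 ± 446 in TAC (SD, n = 3), and the CSA and DMSO sums overlapped. Without CSA 3 the CSA mean was the highest for 15 genes, against 16 for VCS, and the CSA sum was 8262 CPM, below that of VCS. The TAC mean was then the lowest for 22 genes.

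**Figure D3:**
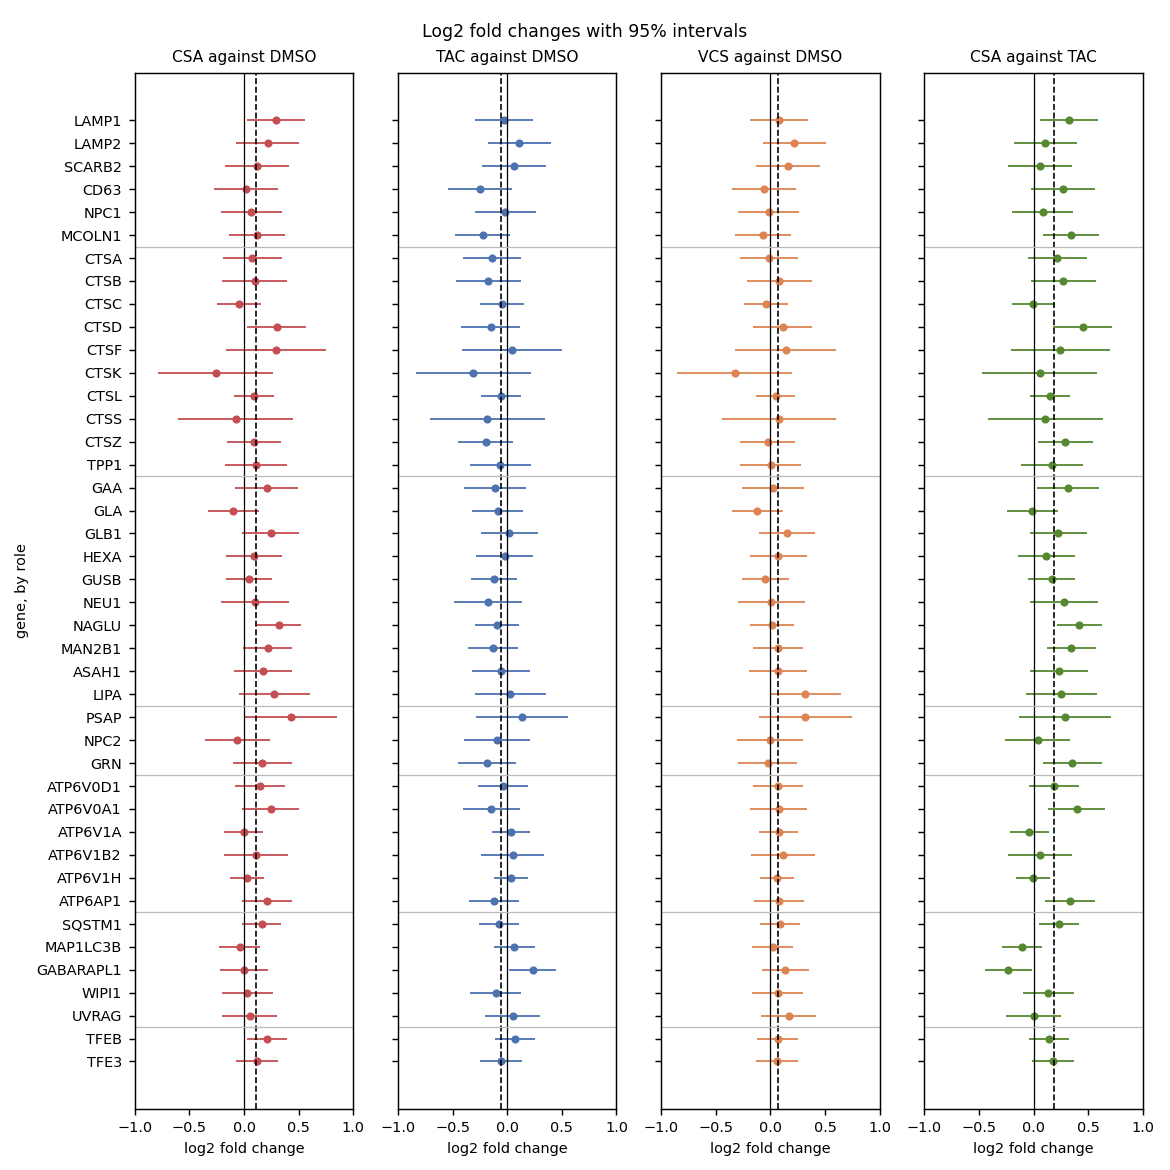
Log2 fold change (horizontal axis) of each of the 42 genes (vertical axis, grouped by role) with its 95% interval, for 3 comparisons with DMSO and for CSA against TAC; dashed lines are the medians of the 42 genes. The medians are 0.11 for CSA, -0.06 for TAC and 0.07 for VCS against DMSO and 0.18 for CSA against TAC, and no interval reaches a 2-fold change.

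The genes with an E-box in the promoter were set beside the others. For CSA against TAC, the 9 genes with CACGTG had a median of 0.28 and all 9 were above 0, while the 21 genes with a window and no CACGTG had a median of 0.17 with 17 above 0. Against DMSO the medians of the 9 and of the 21 were 0.15 and 0.11 in CSA, -0.14 and -0.06 in TAC, and 0.02 and 0.06 in VCS. Without CSA 3 the medians for CSA against TAC were 0.16 and 0.11. Among the sequences shown, GAA, with both copies of the full palindrome, was at 0.32 (SE 0.13) for CSA against TAC, and at 0.16 without CSA 3. MCOLN1, with 1 copy of it, was at 0.34 (SE 0.12), and at 0.22 without CSA 3. LAMP1, with 6 E-boxes, was at 0.32 (SE 0.12), and at 0.18 without CSA 3. These values describe the genes, and the difference between those with and without the motif was not tested.

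A further 163 genes of the pathway, of which 161 were tested, were grouped by role, and none of them passed in any of the 7 comparisons. In CSA against DMSO, 113 of the 161 were above 0 (median 0.07). Among other lysosomal hydrolases 27 of 34 were above 0, and among other membrane and trafficking genes 32 of 37. The other proton pump genes (8 of 13), autophagy genes (26 of 46) and regulators (20 of 31) were nearer an even split. For CSA against TAC the same lists gave 31 of 34 (median 0.18), 33 of 37 (0.18), 22 of 46 (-0.01) and 14 of 31 (-0.02), and 8 of 13 other proton pump genes (0.05). Without CSA 3 the hydrolases were at 17 of 34 against DMSO and 23 of 34 against TAC, and the membrane genes at 25 of 37 in both. In TAC against DMSO 8 of 34 hydrolases were above 0, while 30 of 46 autophagy genes were.

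The 2 genes of smallest p in each direction were as follows. In CSA, SMPD1, the acid sphingomyelinase, was at 56.0 ± 6.39 CPM against 45.8 ± 5.97 in DMSO, and ATG2A, a lipid transfer protein of the growing autophagosome, at 35.4 ± 1.35 against 29.5 ± 3.00. BNIP3, a mitophagy receptor, was at 121.9 ± 14.7 CPM in CSA against 148.6 ± 6.16, and LAMTOR3, a subunit of the Ragulator complex that anchors mTORC1 on lysosomes, at 26.8 ± 3.47 against 32.8 ± 1.94. In both, the CSA libraries lay below all DMSO libraries, with log2 fold changes of -0.29 (SE 0.11) for BNIP3 and -0.29 (SE 0.10) for LAMTOR3. In TAC, MITF, a relative of TFEB, was at 46.3 ± 3.75 CPM against 38.2 ± 4.10, and the ATG8-processing protease ATG4C at 9.66 ± 0.0753 against 8.11 ± 0.360. The acid phosphatase ACP2 was at 20.5 ± 1.77 CPM in TAC against 24.5 ± 1.35, and the proton pump gene ATP6V0E2 at 27.3 ± 1.92 against 32.9 ± 0.328. In VCS, PPP3CA, a catalytic subunit of calcineurin, was at 66.5 ± 1.99 CPM against 59.3 ± 0.619, TAX1BP1, an autophagy receptor, at 125.7 ± 6.14 against 112.0 ± 2.54, PIP4P1 at 26.8 ± 0.834 against 29.65 ± 2.40, and BNIP3 at 132.8 ± 12.04 against 148.6 ± 6.16 (SD, n = 3 for all). All had adjusted p-values of 0.92 to 0.963 by edgeR.

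**Figure D4:**
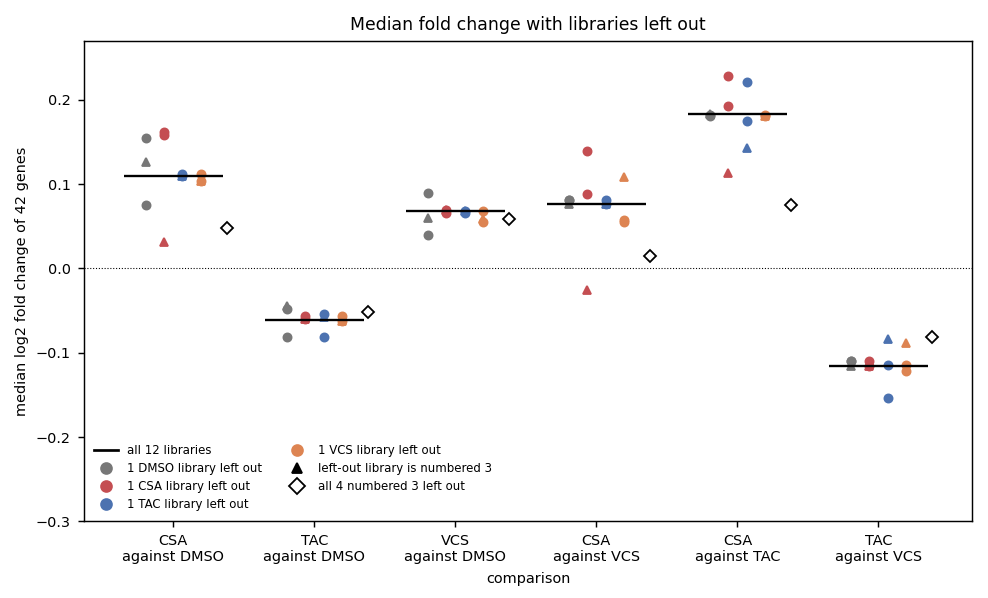
Median log2 fold change of the 42 genes (vertical axis) in 6 comparisons (horizontal axis), with all 12 libraries (line), with each library left out in turn (filled symbols, coloured by group, triangles for libraries numbered 3) and with all 4 libraries numbered 3 left out (open diamonds). Leaving out CSA 3 takes the median of CSA against DMSO to 0.03 and that of CSA against VCS to -0.03, while the medians of TAC against DMSO and TAC against VCS stay below 0.

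Counts of some of the genes could be shared with neighbours or copies. SQSTM1 overlaps MRNIP, CTSA overlaps PLTP and MAP1LC3B overlaps FBXO31, all on the other strand. MAP1LC3B has a near copy, MAP1LC3B2, with 2 to 12 counts, and GABARAPL1 has the copy GABARAPL3, with 0 to 2 counts.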

How the data were processed

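Polyadenylated RNA of 12 podocyte cultures was sequenced with in-line UMIs and spike-ins, per the labels. The authors deposited whole-number counts per Ensembl gene, taken to be estimated counts from Salmon that the authors rounded. Salmon and GRCh38 are named in the submitters' processing notes. Collapse of UMIs and use of strand are not given in the sources used here, so counts may include copies of 1 molecule. Of 62262 genes, 22339 had no counts, and symbols matched 62252. Positions are from GENCODE 29 on GRCh38, and promoter windows from RefSeq.

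The 42 genes, the further lists and the tests were chosen with earlier results of these data known. Libraries were grouped by their labels. Genes were kept by filterByExpr (minimum count 10), scaled by TMM and fitted with edgeR 4.0.16 in R 4.3.3 (quasi-likelihood, group as the only term, 8 residual degrees of freedom), two-sided, with Benjamini-Hochberg adjustment over 19784 genes. Levels are TMM-scaled CPM. The SE is the log2 fold change divided by the root of F. Full values are given for genes with an unadjusted p under 0.05 against DMSO and for MCOLN1, TFEB and TFE3. Of the further genes, the 2 of smallest p per direction against DMSO are named, and other genes were named after their values were seen. Alternatives were RLE scaling, no filter, DESeq2 1.42.0, the replicate number as a block, a fit of the compared groups alone, each library left out, and the 4 libraries numbered 3 left out. Under these alternatives, counts of genes above 0 and of genes at an unadjusted p under 0.05 were added after seeing the data. Same-numbered libraries were taken as pairs where all 3 correlations of their deviations from the group means were over 0.1, which held for CSA (0.10 to 0.22) and TAC (0.11 to 0.38) with DMSO and for TAC with VCS (0.23 to 0.53). This pairing comes from the data, not the labels, and the blocked counts are given beside those results and for CSA against TAC. The fit was tested on simulated data.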

Additional observations from a re-analysis of the deposited data

How the results depend on the processing

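None of the 42 genes passed in any of the 7 comparisons under RLE scaling, without the filter, with only the groups compared (6 comparisons), without the 4 libraries numbered 3, or with any 1 library left out. With DESeq2, 1 gene passed, and with replicate number as a block 1 gene passed, both times NAGLU for CSA against TAC (log2 fold change 0.41 and 0.42, adjusted p = 0.0261 and 0.0442, and 0.0261 to 0.936 over its 18 alternatives). The block changed no other call among the 42 genes. It raised the genes that passed in the whole table for CSA against TAC from 6 to 65, and DESeq2 raised them to 46. Without the filter, 87 of 39923 genes passed there. Among the further pathway genes, 2 passed under the block for CSA against TAC (BNIP3 and SGSH, named after their values were seen) and 0 otherwise under the block. Same-numbered libraries of different groups had correlations of their deviations from the group means of 0.0069 to 0.53, over 0.1 in 14 of 18 pairs. For CSA against TAC they were 0.0069 to 0.185, so the rule for pairs was not met there. Nor was it met for VCS against DMSO (0.097 to 0.43) or CSA against VCS (0.077 to 0.19). By the same rule CSA and TAC were each paired with DMSO, and a low correlation cannot exclude a pairing between them. Whether the NAGLU call under the block is one of a paired design is therefore not known. As a hint from the data, 11 of 12 libraries correlated best with their own number.

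Without the 4 libraries numbered 3, the median for CSA against TAC was 0.075, and 9 genes were above 0 for TAC against VCS. With 1 library left out, the number above 0 ranged from 26 to 36 in CSA against DMSO, 7 to 17 in TAC against DMSO, 26 to 33 in VCS against DMSO, 23 to 33 for the mean of the inhibitors, 16 to 35 for CSA against VCS, 29 to 38 for CSA against TAC and 5 to 8 for TAC against VCS. The median log2 fold change ranged from 0.03 to 0.16, -0.08 to -0.04, 0.04 to 0.09, 0.02 to 0.07, -0.025 to 0.14, 0.11 to 0.23 and -0.15 to -0.08, in the same order. The cause was not tested. Of 5250 values of single genes under the alternatives, 4962 kept their sign and their side of the threshold, 286 changed sign without passing in either fit, and 2 were the NAGLU calls above. With 3 libraries a group, SEs of the 42 genes against DMSO were 0.07 to 0.24 on the log2 scale.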
